A study of Mus musculus with 9 samples.

Results

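The subunits described here belong to the BAF complex, the mammalian SWI/SNF chromatin remodeller, and were chosen by gene symbol: Smarca2, Smarca4, Smarcc1, Smarcc2, Smarcd1, Smarcd2, Smarcd3, Smarcb1 and Arid1a. These 9 genes, out of 19057 genes annotated on the array, are represented by 17 probes. Of these probes, 11 were detected on at least 3 of the 9 arrays (detection p under 0.01), and 8 of the 9 genes had at least 1 such probe. Smarcd1 had none.

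RNA from 3 kinds of mouse cells was hybridised to Illumina bead arrays, 3 arrays each. The mES group was undifferentiated embryonic stem cells, labelled mES_TBV2. The CMp group was purified neonatal cardiomyocytes taken from the heart at an age of 1 day, and the CMa group was purified adult cardiomyocytes taken from the left ventricle at 2 months. No group carried a treatment or an engineered allele in the labels, which name both kinds of heart cells as purified, cultured primary cells. CMp and CMa differ in age and in the region of the heart at once, and the effects of these cannot be told apart. The series description calls the 3 arrays of a group biological replicates. The labels do not say whether these came from separate cultures or litters. The p-values therefore reflect array-to-array spread, and which unit that spread covers is not stated.

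BAF complexes use the energy of ATP to move or eject nucleosomes. A canonical complex holds a single ATPase, either Smarca4 (BRG1) or its paralog Smarca2 (BRM), with scaffold subunits of the Smarcc pair, a member of the Smarcd family, the core subunit Smarcb1 and an Arid1 subunit. Complexes of mouse embryonic stem cells are known to be built with Smarca4 and Smarcc1 and to hold little Smarca2 or Smarcc2, and Smarcd3 is known as the Smarcd paralog of developing heart, where it works with cardiac transcription factors such as Gata4, Nkx2-5 and Tbx5.

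The 3 paralog pairs that could be compared are shown by the 250 bases upstream of their start sites, because both genes of each pair changed in opposite directions. The sequences are from RefSeq, build GRCm38.p6, written 5′ to 3′ on the gene's strand. Capitals mark the GC box GGGCGG, the TATA box TATAAA, the NRF1 core TGCGCA and the GATA site GATAAG, each searched on both strands. The CCAAT box was searched likewise and no copy lies in these 6 windows. The motifs were chosen after the windows had been seen.
Smarca2, chr19:26604910-26605159, plus strand: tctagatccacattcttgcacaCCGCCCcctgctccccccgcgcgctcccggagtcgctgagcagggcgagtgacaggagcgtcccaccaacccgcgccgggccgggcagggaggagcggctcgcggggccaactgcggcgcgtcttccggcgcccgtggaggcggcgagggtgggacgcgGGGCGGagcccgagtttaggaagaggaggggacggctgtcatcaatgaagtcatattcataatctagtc
Smarca4, chr9:21615919-21616168, plus strand: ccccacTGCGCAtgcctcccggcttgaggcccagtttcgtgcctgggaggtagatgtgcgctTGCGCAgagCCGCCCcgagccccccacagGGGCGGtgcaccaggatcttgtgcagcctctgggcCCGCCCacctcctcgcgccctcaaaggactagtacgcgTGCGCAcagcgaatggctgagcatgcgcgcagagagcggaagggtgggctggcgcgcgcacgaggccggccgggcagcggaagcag
Smarcc2, chr10:128458986-128459235, plus strand: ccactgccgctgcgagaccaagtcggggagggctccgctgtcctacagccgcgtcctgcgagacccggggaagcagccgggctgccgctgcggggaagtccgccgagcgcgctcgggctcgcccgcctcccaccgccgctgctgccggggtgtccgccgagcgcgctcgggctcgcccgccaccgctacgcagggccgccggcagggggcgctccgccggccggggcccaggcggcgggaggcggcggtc
Smarcc1, chr9:110131774-110132023, plus strand: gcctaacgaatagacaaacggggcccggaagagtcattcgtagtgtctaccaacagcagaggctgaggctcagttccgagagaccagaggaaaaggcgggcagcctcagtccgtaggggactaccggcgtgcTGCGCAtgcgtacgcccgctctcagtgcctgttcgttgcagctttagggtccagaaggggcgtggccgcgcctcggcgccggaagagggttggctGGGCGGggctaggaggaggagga
Smarcd3, chr5:24602003-24602252, minus strand: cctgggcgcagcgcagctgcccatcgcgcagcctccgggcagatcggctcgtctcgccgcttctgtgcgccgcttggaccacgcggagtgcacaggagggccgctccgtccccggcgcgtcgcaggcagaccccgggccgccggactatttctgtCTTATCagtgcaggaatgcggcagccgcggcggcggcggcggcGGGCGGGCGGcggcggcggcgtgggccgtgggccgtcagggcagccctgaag
Smarcd2, chr11:106267633-106267882, minus strand: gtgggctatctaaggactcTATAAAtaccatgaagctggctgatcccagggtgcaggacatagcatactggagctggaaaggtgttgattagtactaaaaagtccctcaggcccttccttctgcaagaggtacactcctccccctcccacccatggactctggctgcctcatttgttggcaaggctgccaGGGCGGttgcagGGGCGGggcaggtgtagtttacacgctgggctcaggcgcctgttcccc

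The Smarca4 window holds 3 copies each of the GC box and the NRF1 core, the site of a factor of housekeeping and mitochondrial genes, and Smarcc1 holds 1 of each. Over all 32851 RefSeq promoter windows of this length, 6.43% hold the NRF1 core and 32.7% the GC box. The windows of Smarca2, Smarcd3 and Smarcd2 hold 2 GC boxes each, those of Smarcd3 sharing bases. The Smarcd3 window also holds 1 GATA site, which 6.55% of all windows hold. Smarcc2 holds none of these motifs. The Smarcd2 window differs from the other windows in base composition: it holds a TATA box (12.4% of all windows), and its CpG observed over expected is 0.201, against 0.798 to 1.06 in the other windows shown and a median of 0.373 over all windows. The start sites of Smarcd2 and Smarcd3 lie 5366 and 22454 bases inside the annotated gene. Those of Smarca2, Smarca4 and Smarcc2 lie 87, 63 and 54 bases inside. Other start sites of these genes are not covered. A match is a description of the letters and not a bound site.

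The array medians of signal ran from 88.7 to 112.2, and 30.4% to 39.6% of probes were detected per array, fewest in CMa. Defining markers fitted the labels: the summed linear level of 8 cardiomyocyte markers was 273 to 320 in mES, 157664 to 160055 in CMp and 158021 to 194535 in CMa, and that of 8 pluripotency markers 72482 to 80173, 481 to 517 and 1210 to 1654. Pou5f1, Nanog, Sox2, Dppa4 and Tdgf1 were not well above background on any CMp or CMa array, and neither was Zfp42 in CMa. Esrrb of the same list was detected on all of them, at log2 levels of 8.25 to 8.42 in CMp and 9.99 to 10.52 in CMa. It was the brightest of the 8 in both groups and 3.76-fold higher in CMa than in CMp (limma adjusted p 7.33e-06). Dppa5a was detected on 3 CMp and 2 CMa arrays. Markers of other heart cells were present too. Summed levels were 144 to 153, 17350 to 22703 and 4571 to 5855 for 7 fibroblast markers, and 1224 to 1678, 16707 to 28838 and 8369 to 11416 for 7 endothelial markers, in mES, CMp and CMa in turn. They were 1712 to 3167, 30061 to 31287 and 6056 to 6739 for 5 smooth muscle markers, and 82.0 to 96.0, 92058 to 102204 and 8699 to 17172 for 4 erythroid markers. For 5 leukocyte markers they were 106 to 114, 711 to 1162 and 246 to 522. Dcn was the brightest fibroblast marker in CMp and CMa, with mean log2 levels of 13.59 and 12.16, so the fibroblast sums largely follow it. The fibroblast markers differed unequally between these groups: Dcn was 2.71-fold and Col1a1 48.1-fold lower in CMa than in CMp. Among the smooth muscle markers Acta2 was the brightest in every group, with mean log2 levels of 11.01, 14.84 and 12.30 in mES, CMp and CMa. Tagln went against the other 4: it was not called in CMp against mES and was lower in CMa (-0.97, limma adjusted p 0.000771), where it was undetected. All 7 fibroblast and all 5 leukocyte markers were undetected in mES. The 6 dividing-cell markers summed to 14759 to 15392, 2037 to 2099 and 220 to 278. Neuronal markers moved the other way: all 5 tested, of 8 listed, were detected in mES and fell in both kinds of cardiomyocytes. Of all genes, 38.8% fell in CMp and 40.1% in CMa. The neuronal sums were 2711 to 3327 in mES, 205 to 276 in CMp and 218 to 285 in CMa. Elavl3 and Rbfox3 passed the detection filter through the mES arrays alone, so their direction is not separate support for a fall. The part of these other cells in the subunit changes was not tested, and in bulk samples fewer cells of a type and less RNA per cell cannot be told apart.

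Against the stem cells, both kinds of cardiomyocytes held more mRNA of Smarca2, Smarcc2 and Smarcd3 and less of Smarca4, Smarcc1, Smarcd2, Smarcb1 and Arid1a. In CMp against mES, 3 of the 8 tested subunits rose and 5 fell, where 35.4% of all 10800 genes tested rose and 38.8% fell. In CMa against mES the same 3 rose and the same 5 fell, with 36.7% and 40.1% of all genes called higher and lower. Since 74.1% and 76.9% of all genes were called in these comparisons, that every tested subunit was called is close to what the arrays show at large. Between CMa and CMp only Smarcc1 passed the test, and it was lower in CMa, where 25.8% of all genes were lower and 52.2% were called in either direction. The median log2 change of the 8 subunits was -0.92 in CMp and -1.20 in CMa against mES and -0.02 in CMa against CMp, beside -0.09, -0.07 and 0.01 over all genes. The groups did not overlap for 8 of 8 subunits in CMp against mES (77.8% of all genes), 7 of 8 in CMa against mES (80.1%) and 1 of 8 in CMa against CMp (55.7%). Both comparisons with mES share the mES arrays. Calls are from limma at a Benjamini-Hochberg adjusted p under 0.05 over all 10800 genes.

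**Figure D1:**
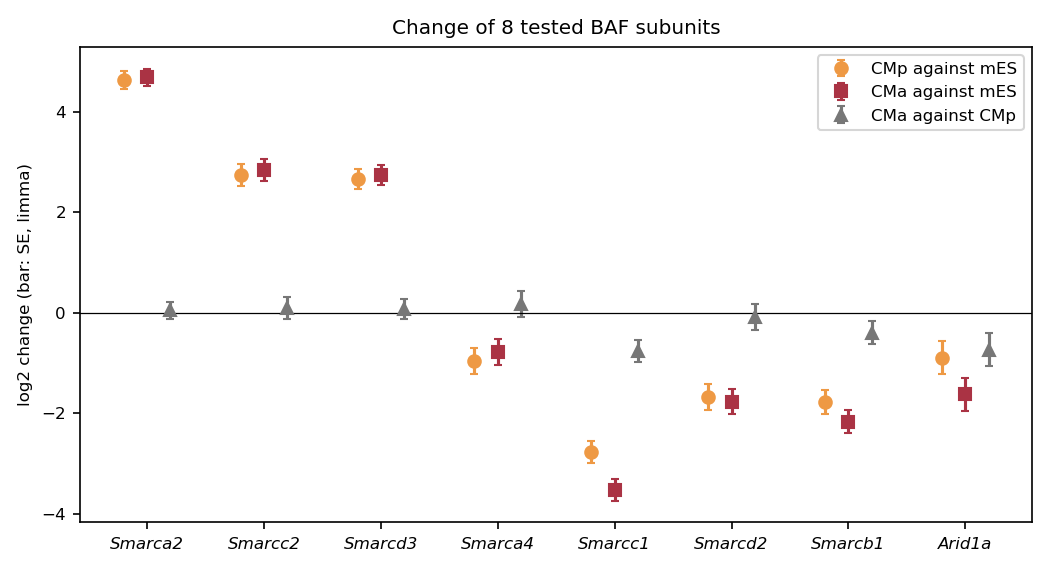
Log2 change of the 8 tested subunits in the 3 comparisons (y axis, log2 units; points, limma estimates from 3 arrays per group; bars, SE). Smarca2, Smarcc2 and Smarcd3 lie above 0 against mES and the other 5 below, while the CMa against CMp estimates run from -0.76 to 0.17.

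The ATPases changed in opposite directions. Smarca2, the BRM ATPase, had log2 levels (background-corrected, quantile-normalized intensity) of 5.76, 6.07 and 5.95 on the mES arrays, 10.40, 10.67 and 10.62 on the CMp arrays and 10.38, 10.63 and 10.84 on the CMa arrays. Every cardiomyocyte array lay above every mES array, and the CMp and CMa arrays overlapped. The group means were 5.93 ± 0.15, 10.56 ± 0.14 and 10.62 ± 0.23 (SD, n = 3). The log2 change against mES was 4.64 ± 0.17 (SE) in CMp, 24.9-fold, with a limma adjusted p of 2.48e-09, and 4.69 ± 0.17 in CMa, 25.8-fold, with an adjusted p of 1.68e-09. By this probe it was the largest change among the 8 tested subunits. CMa and CMp differed by 0.05 ± 0.17 (limma adjusted p 0.826).

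Smarca2 has 5 probes on the array, and these gave changes of different size. The values above are those of the brightest, ILMN_3154810, which was detected on all 9 arrays. ILMN_2598033, detected on 1 mES array and on every cardiomyocyte array, rose by 0.59 ± 0.18 in CMp (limma adjusted p 0.0134) and by 0.93 ± 0.18 in CMa (0.000875). ILMN_3075712 was not well above background on any mES array and was detected on all 6 cardiomyocyte arrays, at least 2.23-fold higher in CMp and at least 2.87-fold higher in CMa (limma adjusted p 0.000835 and 0.000217). Such a bound sets the bright group's mean against the lowest signal that counts as detected in the dim group. The 3 detected probes were higher in both kinds of cardiomyocytes. However, ILMN_2598033 and ILMN_3075712 passed the detection filter only through the cardiomyocyte arrays, so their direction is not separate support for the rise. ILMN_1240192 and ILMN_1252932 were detected on no array. With the mean of the detected probes in place of the brightest, the gene's change was 2.35 in CMp and 2.60 in CMa, below those of Smarcc2 and Smarcd3.

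**Figure D2:**
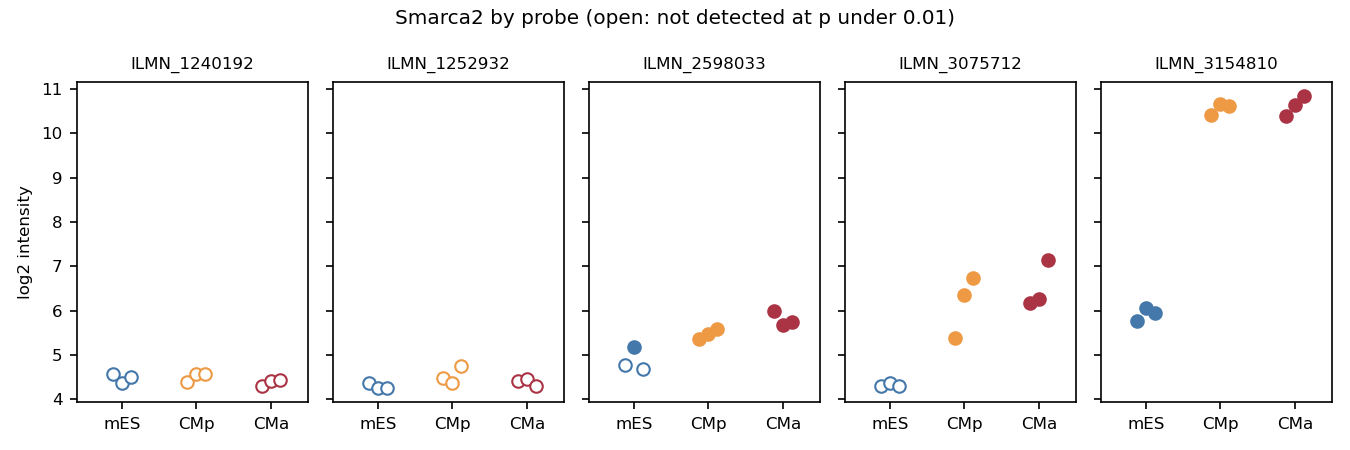
Log2 level of each of the 5 Smarca2 probes on each array (y axis, log2 intensity; x axis, groups; filled, detected; open, not detected). The brightest probe separates mES from the 6 cardiomyocyte arrays by over 4 log2 units, while 2 probes were detected on no array.

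Smarca4, the BRG1 ATPase, read 7.37, 7.73 and 7.51 in mES, 6.31, 6.69 and 6.75 in CMp and 6.34, 6.55 and 7.37 in CMa. All CMp arrays lay below all mES arrays, while CMa replicate 3 reached the lowest mES array, so CMa and mES overlapped. Means were 7.54 ± 0.18, 6.58 ± 0.23 and 6.75 ± 0.55 (SD, n = 3). The change was -0.96 ± 0.26 in CMp (1.94-fold lower, limma adjusted p 0.0059) and -0.78 ± 0.26 in CMa (1.72-fold lower, limma adjusted p 0.0163). The fall in CMa lost its call when mES replicate 2 (limma adjusted p 0.0616), CMa replicate 1 (0.0671) or CMa replicate 2 (0.061) was left out. CMa and CMp differed by 0.17 ± 0.26 (limma adjusted p 0.611).

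The scaffold pair changed in the same crossed manner. Smarcc2 (BAF170), the scaffold paralog known to be scarce in stem cell complexes, read 5.01, 5.10 and 5.26 in mES, 7.53, 8.17 and 7.91 in CMp and 7.69, 7.88 and 8.32 in CMa. The 6 cardiomyocyte arrays all lay above the mES arrays and overlapped each other. From a mean of 5.12 ± 0.13 (SD, n = 3) in mES it rose to 7.87 ± 0.33 in CMp and 7.97 ± 0.32 in CMa, changes of 2.75 ± 0.21 (6.72-fold, limma adjusted p 6.67e-07) and 2.84 ± 0.21 (7.17-fold, 3.81e-07). CMa and CMp differed by 0.09 ± 0.21 (limma adjusted p 0.745).

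Smarcc1 (BAF155), the scaffold paralog of stem cell complexes, read 9.48, 9.37 and 9.36 in mES, 6.93, 6.48 and 6.53 in CMp and 5.49, 5.86 and 6.31 in CMa. The 3 groups did not overlap in any pair, with mES highest and CMa lowest. Means were 9.41 ± 0.07, 6.65 ± 0.25 and 5.89 ± 0.41 (SD, n = 3). The fall was -2.76 ± 0.22 in CMp (6.77-fold, limma adjusted p 7.24e-07) and -3.52 ± 0.22 in CMa (11.5-fold, 7.96e-08), the largest fall among the 8 tested subunits. Smarcc1 was also the only tested subunit called between the cardiomyocytes, -0.76 ± 0.22 in CMa against CMp (1.70-fold lower, limma adjusted p 0.0129), and its probe was detected on 2 of the 3 CMa arrays. In the same comparison 25.8% of all genes were called lower, with 5 of 6 markers of dividing cells and 7 of 7 fibroblast markers. So were 6 of 7 endothelial, 4 of 4 erythroid, 3 of 5 leukocyte and 2 of 5 smooth muscle markers. Of the rest, 4 of 8 cardiomyocyte and 1 of 8 pluripotency markers rose, and 1 of 5 neuronal markers rose and 1 fell, where 26.3% of all genes rose. The part of these cells in the Smarcc1 difference was not tested. A second probe, ILMN_1217302, was detected in mES alone, at least 2.59-fold lower in CMp and at least 1.81-fold lower in CMa (limma adjusted p 7.6e-05 and 1.37e-05). It passed the detection filter through the mES arrays alone, so its direction is not separate support for the fall.

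**Figure D3:**
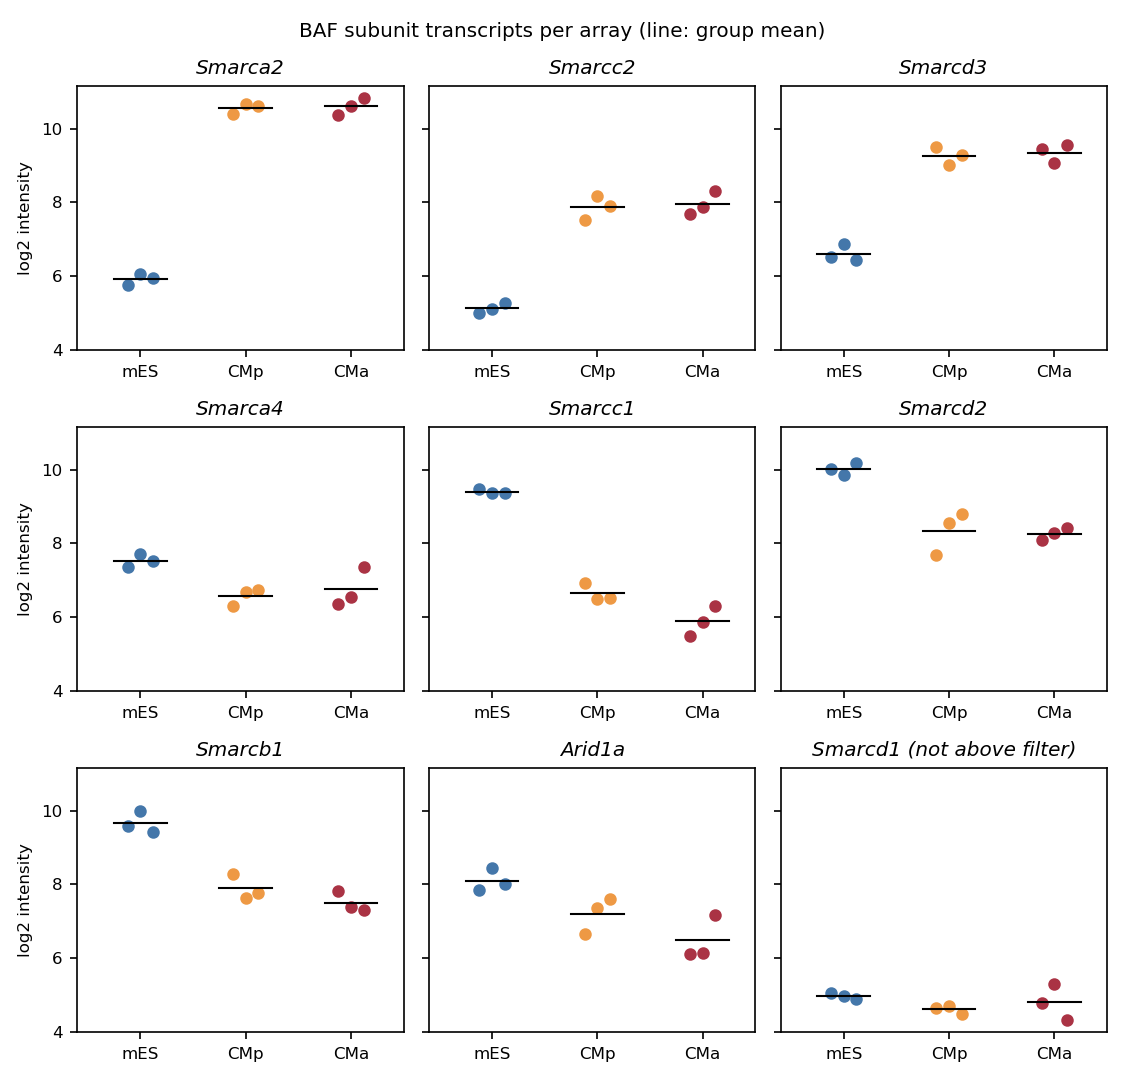
Log2 level of the 9 subunits on each of the 9 arrays, Smarcd1 by its brightest probe below the detection filter (y axis, log2 intensity; x axis, groups; points, arrays; lines, group means). Smarca2, Smarcc2 and Smarcd3 are higher on all cardiomyocyte arrays than on the mES arrays; of the 5 subunits that fell, only Smarca4 overlaps between mES and CMa.

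In the Smarcd family, Smarcd3 (BAF60C) rose and Smarcd2 (BAF60B) fell. Smarcd3 read 6.51, 6.86 and 6.45 in mES, 9.50, 9.02 and 9.29 in CMp and 9.46, 9.06 and 9.55 in CMa. All cardiomyocyte arrays lay above all mES arrays, and CMp and CMa overlapped. Means were 6.61 ± 0.22, 9.27 ± 0.24 and 9.36 ± 0.26 (SD, n = 3), a change of 2.66 ± 0.20 in CMp (6.34-fold, limma adjusted p 4.65e-07) and of 2.75 ± 0.20 in CMa (6.72-fold, 2.74e-07). CMa and CMp differed by 0.08 ± 0.20 (limma adjusted p 0.752). The rise was thus already present in cells of 1 day, with no further difference past the test at 2 months.

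Smarcd2 read 10.03, 9.87 and 10.18 in mES, 7.70, 8.55 and 8.80 in CMp and 8.09, 8.28 and 8.42 in CMa. All cardiomyocyte arrays lay below the mES arrays, and CMp replicate 1 was the lowest of the 9. Means were 10.03 ± 0.15, 8.35 ± 0.58 and 8.26 ± 0.17 (SD, n = 3), changes of -1.68 ± 0.26 (3.20-fold lower, limma adjusted p 0.000137) and -1.76 ± 0.26 (3.39-fold lower, 8.3e-05). CMa and CMp differed by -0.09 ± 0.26 (limma adjusted p 0.811).

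Smarcd1 (BAF60A), the paralog known from stem cell complexes, could not be tested at this detection limit. Its 3 probes were detected on 1, 1 and 2 of the 9 arrays, the last being ILMN_2769786 on 1 mES and 1 CMa array. That probe read 5.05, 4.96 and 4.88 in mES, 4.64, 4.70 and 4.49 in CMp and 4.79, 5.31 and 4.31 in CMa, so CMa spanned the other groups. With no detection filter its log2 change was -0.36 in CMp and -0.16 in CMa against mES (limma adjusted p 0.257 and 0.619), a value from signals near background.

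Smarcb1, a core subunit of canonical BAF and of PBAF, read 9.60, 10.00 and 9.42 in mES, 8.27, 7.64 and 7.78 in CMp and 7.83, 7.38 and 7.31 in CMa. Every cardiomyocyte array lay below every mES array, and CMp and CMa overlapped. Means were 9.67 ± 0.30, 7.90 ± 0.33 and 7.51 ± 0.28 (SD, n = 3). The change was -1.77 ± 0.23 in CMp (3.42-fold lower, limma adjusted p 3.68e-05) and -2.17 ± 0.23 in CMa (4.49-fold lower, 6.21e-06). CMa and CMp differed by -0.39 ± 0.23 (limma adjusted p 0.175).

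Arid1a, the large DNA-binding subunit of canonical BAF, read 7.84, 8.45 and 8.01 in mES, 6.67, 7.37 and 7.60 in CMp and 6.12, 6.14 and 7.18 in CMa. It lay lower on all cardiomyocyte arrays, with CMp and CMa overlapping through CMa replicate 3. Means were 8.10 ± 0.31, 7.21 ± 0.49 and 6.48 ± 0.61 (SD, n = 3). The change was -0.89 ± 0.33 in CMp (1.85-fold lower, limma adjusted p 0.0289) and -1.62 ± 0.33 in CMa (3.07-fold lower, 0.000869). The CMp call was lost without mES replicate 2 (limma adjusted p 0.112), mES replicate 3 (0.0546) or CMp replicate 1 (0.0976), and with no detection filter (0.0608). CMa against CMp gave -0.73 ± 0.33 (limma adjusted p 0.0834), which passed the test without CMp replicate 1 (limma adjusted p 0.0194) or CMa replicate 3 (0.0112). A second Arid1a probe was detected on 1 CMp array alone.

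Within each array, the log2 difference between paralogs moved toward Smarca2, Smarcc2 and Smarcd3 in both kinds of cardiomyocytes. The difference between 2 probes has no meaning as a level, since probes bind unequally, so only its change between groups is read. Smarca2 minus Smarca4 was -1.61, -1.66 and -1.57 in mES, 4.09, 3.98 and 3.87 in CMp and 4.03, 4.09 and 3.46 in CMa. The cardiomyocyte arrays all lay above mES and overlapped each other. The shift from mES was 5.59 ± 0.17 in CMp and 5.47 ± 0.17 in CMa (SE), and CMa and CMp differed by -0.12 ± 0.17.

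Smarcc2 minus Smarcc1 was -4.48, -4.27 and -4.11 in mES, 0.59, 1.69 and 1.39 in CMp and 2.21, 2.03 and 2.01 in CMa. No pair of groups overlapped. The shift was 5.51 ± 0.29 in CMp and 6.36 ± 0.29 in CMa, and the step from CMp to CMa was 0.86 ± 0.29. That step comes mostly from Smarcc1 (-0.76, beside 0.09 for Smarcc2), which lies near background in CMa. Its levels there were 5.49, 5.86 and 6.31, where the lowest detected signals were 5.64, 5.31 and 5.52. Smarcc2 lies near background in mES, which limits the size of both shifts. Smarcd3 minus Smarcd2 was -3.52, -3.01 and -3.73 in mES, 1.80, 0.48 and 0.49 in CMp and 1.36, 0.79 and 1.13 in CMa. Here CMp replicate 1 stood above the other cardiomyocyte arrays, and the groups CMp and CMa overlapped. The shift was 4.34 ± 0.42 in CMp and 4.51 ± 0.42 in CMa, with 0.17 ± 0.42 between them. An exact permutation test of the spread between the 3 groups over all 1680 allocations of the arrays gave p = 0.0286 for Smarca2 and Smarca4, 0.00357 for Smarcc2 and Smarcc1, the smallest it can give, and 0.0286 for Smarcd3 and Smarcd2. Adjusted over the 3 pairs by Benjamini-Hochberg these exact values were 0.0286, 0.0107 and 0.0286.

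**Figure D4:**
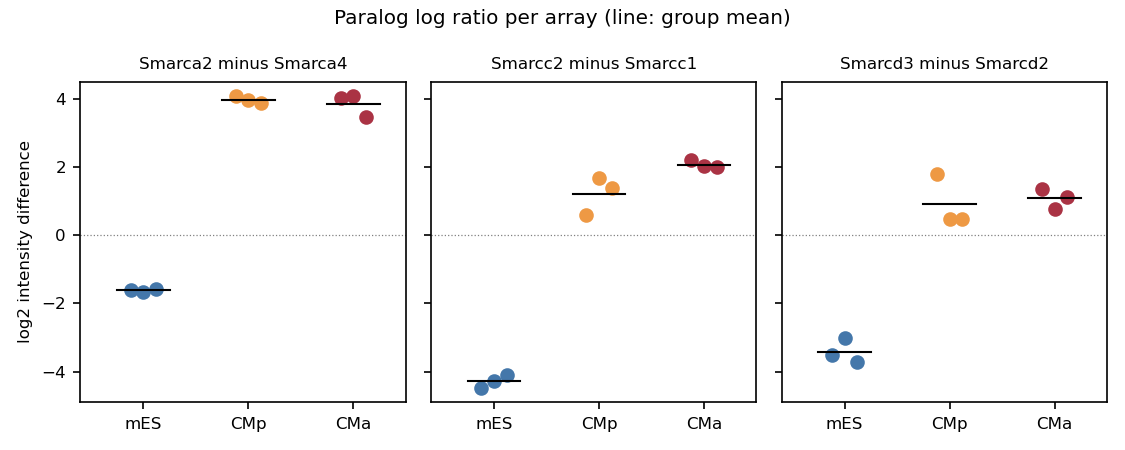
Log2 intensity difference between paralogs on each array (y axis, log2 units; x axis, groups; points, arrays; lines, group means). For all 3 pairs the mES arrays lie between -4.48 and -1.57 and the cardiomyocyte arrays between 0.48 and 4.09.

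The size of these changes depended on the background correction, although the calls of the 4 genes given here did not. Without background correction the change in CMp and CMa against mES was 3.53 and 3.58 for Smarca2, 1.48 and 1.56 for Smarcc2, 1.99 and 2.07 for Smarcd3 and -2.09 and -2.47 for Smarcc1. In the authors' normalized values the same changes were 2.74 and 2.79, 0.87 and 0.92, 1.45 and 1.52, and -1.54 and -1.74. The paralog shifts from mES to CMa were then 3.09, 2.67 and 2.83 for the ATPase, Smarcc and Smarcd pairs.

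The other subunits of BAF, PBAF and ncBAF complexes moved in both directions. Of 22 genes 18 were tested, and 6 rose, 4 fell and 8 were not called in CMp against mES, with a median log2 change of -0.13. In CMa against mES 7 rose, 6 fell and 5 were not called (median 0.20), and in CMa against CMp 3 rose, 4 fell and 11 were not called (median -0.20). Of all genes tested, 35.4% rose and 38.8% fell in CMp, 36.7% and 40.1% in CMa, and 26.3% and 25.8% in CMa against CMp, with medians of -0.09, -0.07 and 0.01. When the arrays were scaled to a common median instead, 2 rose and 8 fell in CMp and 1 rose and 11 fell in CMa, so the balance of directions rests on the scaling. In CMa against CMp the common median gave 2 that rose and 6 that fell, and array weights gave 4 and 10. There the number that fell was 6 without CMp replicate 1 or CMa replicate 3 and 2 without CMp replicate 2, CMp replicate 3 or CMa replicate 2, and the number that rose was 5 without CMa replicate 1. In CMa against mES 4 rose without mES replicate 3. The probe rule turned Actb, the actin subunit, named after its values were seen: -1.39 in CMa against mES by its brightest probe and 1.23 by the mean of its kept probes (limma adjusted p 5.86e-05 and 4.55e-05). That scaling moved the median change of all genes to -0.59 in CMp and -0.78 in CMa.

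Actl6a, the actin-like subunit of dividing and progenitor cells, fell, with log2 changes of -1.99 ± 0.16 in CMp and -2.45 ± 0.16 in CMa against mES (limma adjusted p 6.9e-07 and 1.02e-07) and -0.46 in CMa against CMp (0.0289). The last call was lost when CMp replicate 2 (limma adjusted p 0.0849), CMp replicate 3 (0.104) or CMa replicate 2 (0.103) was left out. Ss18, a subunit of BAF and ncBAF, fell likewise, by log2 changes of -0.74, -1.65 and -0.91 in these 3 comparisons (limma adjusted p 0.00384, 1.03e-05 and 0.00198). Bicral, an ncBAF subunit, changed by -1.65 in CMp and -1.87 in CMa (limma adjusted p 0.000281 and 9.71e-05), and Phf10, a PBAF subunit, by -0.74 and -1.10 (0.0024 and 0.000134). Dpf3, a histone-reading subunit known from heart and skeletal muscle, was not well above background in mES and was at least 1.09-fold higher in CMp and at least 1.84-fold higher in CMa (limma adjusted p 0.00328 and 2.16e-05). Only 2 CMp and 2 CMa arrays detected it. Dpf3 thus passed the detection filter through the cardiomyocyte arrays alone, so its direction against mES, also in the counts above, is not support for a rise.

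Between CMa and CMp, the subunits that rose were Dpf3 (0.76, limma adjusted p 0.00637), Brd7 (0.74, 0.00115) and Bcl7b (1.29, 0.000656). The Dpf3 call was lost with the common median (limma adjusted p 0.299) and with cyclic loess (0.0949). Arid1b, the paralog of Arid1a and named here after its values were seen, rose by 1.26 ± 0.20 in CMp and 1.08 ± 0.20 in CMa while Arid1a fell (limma adjusted p 0.000204 and 0.000556). Under the common median the Arid1b changes were 0.44 and 0.22 (limma adjusted p 0.0521 and 0.293).

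**Figure D5:**
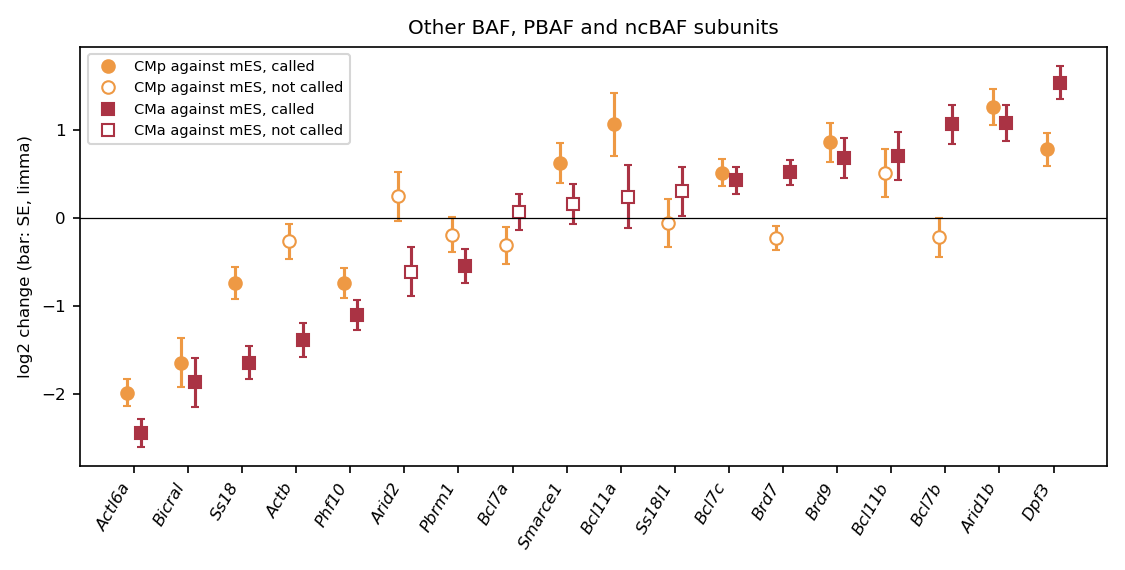
Log2 change of the 18 tested other subunits of BAF, PBAF and ncBAF complexes in CMp and CMa against mES (y axis, log2 units; bars, SE; filled, called; open, not called). Actl6a, Bicral, Ss18 and Phf10 lie below 0 in both comparisons with mES, and Arid1b and Dpf3 above. Dpf3 passed the detection filter through the cardiomyocyte arrays alone.

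Among the remodellers outside the SWI/SNF family, most called genes were lower in the cardiomyocytes, also with the common median, with cyclic loess and in the authors' values. Of 21 tested ISWI and CHD genes (25 listed), 1 rose and 11 fell in CMp and 1 rose and 17 fell in CMa against mES, and 1 rose and 12 fell in CMa against CMp, with median changes of -0.62, -1.34 and -0.61. Over all genes tested the shares that fell were 38.8%, 40.1% and 25.8%, and the median changes -0.09, -0.07 and 0.01. Without CMp replicate 1, 4 rose and 10 fell in CMp. The probe rule turned Rbbp4, a histone-binding NuRD subunit named after its values were seen: it was at -1.37 in CMp and -2.08 in CMa by its brightest probe and at 0.79 and 0.93 by the mean of its kept probes (limma adjusted p 0.000415 and 0.000118 for the latter). Mbd2, the methyl-CpG reader of the NuRD complex, changed by -2.53 in CMp and was at least 5.34-fold lower in CMa, where it was not well above background. The ISWI ATPase Smarca1 changed by -3.23 in CMa, and the NuRD subunit Mta3 by -2.23 in CMp and -2.83 in CMa, all past the test. Rbbp7, a histone-binding subunit of NuRD, changed by -2.23 in CMp (limma adjusted p 0.0224), with CMp overlapping mES, and lost its call with no detection filter (0.0594) and without mES replicate 1 (0.0587), mES replicate 2 (0.0603), CMp replicate 2 (0.0846) or CMp replicate 3 (0.0879). Against this direction, the NuRD ATPase Chd3 rose by 1.58 in CMp and Mta1 by 0.82 in CMa (limma adjusted p 0.000109 and 0.00209), and Mta1 was the gene higher in CMa than in CMp. Chd3 was at 0.01 in the authors' values and Mta1 at -0.05 under the common median, neither called.

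Of 15 tested genes of the INO80, SRCAP and TIP60 complexes (17 listed), 1 rose and 10 fell in CMp and 1 rose and 11 fell in CMa against mES, with median changes of -1.07 and -1.17. Over all genes tested 35.4% rose and 38.8% fell in CMp, 36.7% rose and 40.1% fell in CMa, and the medians were -0.09 and -0.07. The AAA+ ATPases that these complexes share were among those that fell, Ruvbl2 by log2 changes of -3.49 and -3.38 and Ruvbl1 by -2.55 and -2.88. Ing3, a TIP60 subunit, changed by -1.80 in CMa (limma adjusted p 0.0044), and Kat5, the TIP60 acetyltransferase, by -1.76 in CMp and -1.24 in CMa (4.43e-05 and 0.000532). Epc1, a TIP60 subunit, rose by 1.18 in CMp (limma adjusted p 0.000275) and by 0.50 in CMa (0.0395). Under the common median neither rise held: the change was 0.44 in CMp (limma adjusted p 0.0573) and turned to -0.50 in CMa (0.0351). The Epc1 call in CMa depended on single arrays: the limma adjusted p was 0.13 with mES replicate 1 left out and 0.154 with mES replicate 3 left out. It was 0.0531 and 0.0517 on leaving out CMp replicates 2 and 3, and 0.0598, 0.0521 and 0.115 on leaving out CMa replicates 1, 2 and 3. In CMa against CMp 1 rose and 2 fell (median -0.13), where 26.3% of all genes rose and 25.8% fell (median 0.01). The gene that rose was Znhit1 of the SRCAP complex (0.94, limma adjusted p 0.00225). With cyclic loess 3 of the 15 genes rose and 3 fell in this comparison.

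Of the transcription factors known to work with Smarcd3 in the heart, 5 of 6 could be tested, as Tbx5 had no kept probe. All 5 were higher in both kinds of cardiomyocytes, where 35.4% and 36.7% of all genes rose. Gata4, Mef2c, Hand2 and Tbx20 were detected on cardiomyocyte arrays alone, and Nkx2-5 on 1 mES array besides. They passed the detection filter through the groups in which they are high, so this count is not support for a shared rise. Nkx2-5 rose by 4.72 in CMp and by 4.97 in CMa, 26.3-fold and 31.4-fold. Mef2c was at least 55.6-fold and at least 42.6-fold higher, and Tbx20 at least 12.4-fold and at least 5.63-fold higher, both undetected in mES. Gata4 and Hand2, also undetected in mES, were at least 2.51-fold and 2.53-fold higher in CMp and at least 2.83-fold and 3.53-fold higher in CMa. Tbx20 alone differed between CMa and CMp (-1.14, limma adjusted p 0.00126).

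The genes whose centred profiles over the 9 arrays lay nearest to that of Smarca2 were Adcy6 (distance 0.46 log2 units, r = 0.998), an adenylyl cyclase, Dusp8 (0.47, r = 0.998), a MAP kinase phosphatase, and Cav3 (0.57, r = 0.996), the muscle caveolin. Nearest to Smarcd3 were St7 (0.49, r = 0.992), Prkaca (0.50, r = 0.995), a catalytic subunit of protein kinase A, and Vopp1 (0.58, r = 0.992). Nearest to Smarca4, with its smaller range, were Ckap5 (0.43, r = 0.966), Dnajc17 (0.43, r = 0.959) and Htt (0.45, r = 0.961). These r values are descriptions over 9 arrays that fall into 3 groups, so they largely restate the group means.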

How the data were processed

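Total RNA (Trizol) was amplified to biotin-labelled cRNA, per the labels' protocols. The deposited table holds non-normalized bead intensity and a detection p-value for 45281 probes on each of 9 arrays, per the file headers. The authors' series matrix holds normalized log2 values; lumi is named in the submitters' processing notes, with its version and steps not given in the sources used here. Symbols came from GEO's platform annotation: 34885 probes have 1 symbol, 18 several and 10378 none.

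Intensities were background-corrected (limma nec from detection p, offset 16), quantile-normalized and log2-transformed. Probes with detection p under 0.01 on at least 3 arrays were kept (19707, of which 16962 have 1 symbol), and the brightest kept probe stood for its gene (10800 genes). limma 3.58.1 in R 4.3.3 was fitted over all 9 arrays with group as the only term, and Benjamini-Hochberg adjustment ran over all genes. The fit was tested on simulated data. Of 5 planned paralog pairs, 3 could be tested, as Smarcd1 had no kept probe. The number of arrays limits the precision.

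All 9 members are named, and per list up to 4 called genes with the largest change and those moving against the majority. Members and lists were chosen with earlier results of these data known. Alternatives changed the background step, offset, normalization, filter, probe rule, replicate block and array weights, used the authors' matrix and left out each array.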

Additional observations from a re-analysis of the deposited data

How the results depend on the processing

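Over 19 alternatives, 456 log2 changes of the 8 tested subunits were recomputed: 441 kept their direction and their side of the threshold, 7 lost the call, 8 gained it and 0 reversed. Part of these changes could not move. Leaving out an array does not alter a change between the groups it is not in. The replicate block alters no log2 change, as every group holds each replicate number once. For these only the call could differ. The number of subunits called in CMa against CMp, 1 in the values reported, was 3 with arrays scaled to a common median, 2 with cyclic loess, 2 with the replicate block and 3 with array weights, and 1 to 2 when single arrays were left out. The added calls were Arid1a (common median -1.13, cyclic loess -0.82, block -0.73, weights -1.23), Smarcb1 under the common median (-0.76) and Smarcd2 under array weights (-0.36), all lower in CMa; the cause was not tested. With the replicate number as a block, the paralog shifts from mES to CMa were 5.47, 6.36 and 4.51, with permutation p 0.0214, 0.00357 and 0.0214. This block cannot move the shifts, which equal those without it, so only the p-values could differ. Deviations of same-numbered arrays correlated at -0.0737 to 0.387, so the numbers were not taken as a pairing. The common median changed the share of higher calls from 47.7%, 47.8% and 50.5% to 34.7%, 31.1% and 35.1% for CMp and CMa set against mES and for the adult against the neonatal cells. All genes called ranged from 6412 to 8997, 6833 to 9207 and 4831 to 7550. Slides as a block were not run, since no slide was used from the files. Signals near background limit Smarcd1, Smarcc1 in CMa, and the fold of Smarcc2, whose mES mean of 5.12 lies close to the lowest detected signals of 4.90 to 5.09 on those arrays.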
